A study of Mus musculus with 9 samples.

Results

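The 46 genes described here encode proteins of mitosis and cytokinesis, the steps in which a cell condenses and separates its chromosomes and then divides. They were chosen by gene symbol for what their products do. The rule uses no measured value, but earlier results of these data were known when the members were chosen. All 46 were found among the 21873 genes of the liver RNA-seq table, and all 46 were among the 14094 genes that were tested, those whose FPKM averaged at least 0.1 over the 9 libraries. In the control and recovery libraries alone, 10 of the 46 had a mean below 0.1, so these 10 passed because of their TAA libraries. With no filter on low values the counts of members called in each comparison were the same.

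Liver RNA came from male C57BL/6 mice that were 8 weeks old at the start, in 3 groups of 3. The TAA group received thioacetamide, a compound that hepatocytes convert to a toxic metabolite and that causes liver fibrosis, by intraperitoneal injection every 3 days for 8 weeks. The control group (NS in the labels) received saline in the same way, and livers of both groups were taken 72 h after the last injection. The recovery group (Re) had the same 8 weeks of thioacetamide and then 8 weeks without injections, so these mice were older when their livers were taken, and no control of that age was analysed here. FPKM (mapped fragments per kilobase and per M fragments of the library) correct for gene length, so that levels of different genes can be set side by side. They were divided by a scaling factor for each library, and "scaled FPKM" below are the result. A gene was called when its limma test, adjusted by Benjamini-Hochberg over all 14094 genes, gave a false discovery rate (FDR) below 0.05 and its fold change was at least 2. Log2 fold changes are of scaled FPKM + 0.1, which understates the change of genes near 0. Standard errors (SE) are those of the limma fit, and p-values measure the spread between these mice only. In whole liver, a change in the number of dividing cells and a change in the RNA per cell cannot be told apart.

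Mitosis begins when cyclin B and the kinase Cdk1 become active together, proceeds through attachment of chromosomes to the spindle under the watch of the spindle checkpoint, and ends when the anaphase-promoting complex with Cdc20 lets the chromosomes separate and the cell is cut apart by a contractile ring. Most genes of this program are switched on together late in the cell cycle, by B-Myb and FoxM1 with the MuvB complex, which reads a promoter element called the cell cycle homology region (CHR), often near CCAAT boxes bound by NF-Y. Hepatocytes of the adult liver rarely divide, and they can re-enter the cycle after injury or loss of tissue.

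Promoter windows of 300 bases, from 250 before to 50 after a transcription start, were taken from RefSeq (GRCm38.p6) for 37 of the 46 members. Ccna2, Cdc25c, Foxm1, Mybl1, Smc4, Aurkb, Incenp, Tpx2 and Kif20a had no entry. The 4 windows printed here belong to Cdc20, Plk1, Cdk1 and Top2a, which are described in full below and whose windows hold both kinds of letters. They are written from 5′ to 3′ on the strand of the gene, and capitals mark the CHR letters (TTTGAA or TTCGAA) and the CCAAT letters on either strand. They lie at chr4:118437294-118437593 (minus strand, Cdc20), chr7:122159185-122159484 (plus strand, Plk1), chr10:69352863-69353162 (minus strand, Cdk1) and chr11:99024140-99024439 (minus strand, Top2a).
Cdc20: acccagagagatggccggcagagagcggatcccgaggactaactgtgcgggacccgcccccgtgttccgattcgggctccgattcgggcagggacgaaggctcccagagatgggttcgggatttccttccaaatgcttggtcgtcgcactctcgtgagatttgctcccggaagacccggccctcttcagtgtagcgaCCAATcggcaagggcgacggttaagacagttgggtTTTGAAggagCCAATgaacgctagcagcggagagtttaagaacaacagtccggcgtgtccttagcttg
Plk1: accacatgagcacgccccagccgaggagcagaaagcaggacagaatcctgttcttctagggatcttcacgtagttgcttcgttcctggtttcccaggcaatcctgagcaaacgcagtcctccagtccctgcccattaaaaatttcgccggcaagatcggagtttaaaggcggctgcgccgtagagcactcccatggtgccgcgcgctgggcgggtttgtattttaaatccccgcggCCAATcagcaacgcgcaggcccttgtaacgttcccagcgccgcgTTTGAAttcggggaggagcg
Cdk1: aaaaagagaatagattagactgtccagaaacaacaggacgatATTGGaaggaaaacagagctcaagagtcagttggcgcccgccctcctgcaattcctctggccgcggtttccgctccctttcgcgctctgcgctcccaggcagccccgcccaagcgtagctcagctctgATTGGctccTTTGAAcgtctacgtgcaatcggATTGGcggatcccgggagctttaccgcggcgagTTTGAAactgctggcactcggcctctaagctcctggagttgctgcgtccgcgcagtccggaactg
Top2a: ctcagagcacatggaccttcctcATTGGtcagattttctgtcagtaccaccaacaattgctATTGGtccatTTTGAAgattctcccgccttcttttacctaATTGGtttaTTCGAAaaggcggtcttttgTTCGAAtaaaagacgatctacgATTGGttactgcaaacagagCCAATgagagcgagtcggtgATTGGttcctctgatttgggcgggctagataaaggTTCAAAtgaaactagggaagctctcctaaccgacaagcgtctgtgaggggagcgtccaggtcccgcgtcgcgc
In Cdc20 the CHR letters begin at position -18 from the start and lie between 2 CCAAT matches, at -53 and -8. Of the 4, Top2a holds the most, with 4 CHR and 6 CCAAT matches. Plk1 has 1 of each, and its CHR letters lie after the start.

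Over the 37 members with a window, taking the first window listed for each gene, 27 (73.0%) held CHR letters, against 19.4% of the windows of 27025 genes. CCAAT was found in 27 (73.0%) against 37.9%, and at least 2 CCAAT matches in 18 (48.6%) against 12.2%. Both kinds stood together in 24 (64.9%) against 7.70% of all windows, and CHR letters starting in the last 150 bases in 25 (67.6%) against 8.68%. E2F letters (TTTGGCGC, TTTCGCGC, TTTGGCGG or TTTCGCGG, either strand; none of these contains the other motifs) were found in Cdk1, Melk and Ncapd2, 8.11% of the members against 1.60%. The windows of Pttg1, Birc5, Mad2l1, Mybl2, Nuf2 and Nusap1 held none of these letters. The median GC content was 59.7% in the members and 52.7% over all windows. These are letter matches, and no binding was measured.

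**Figure D1:**
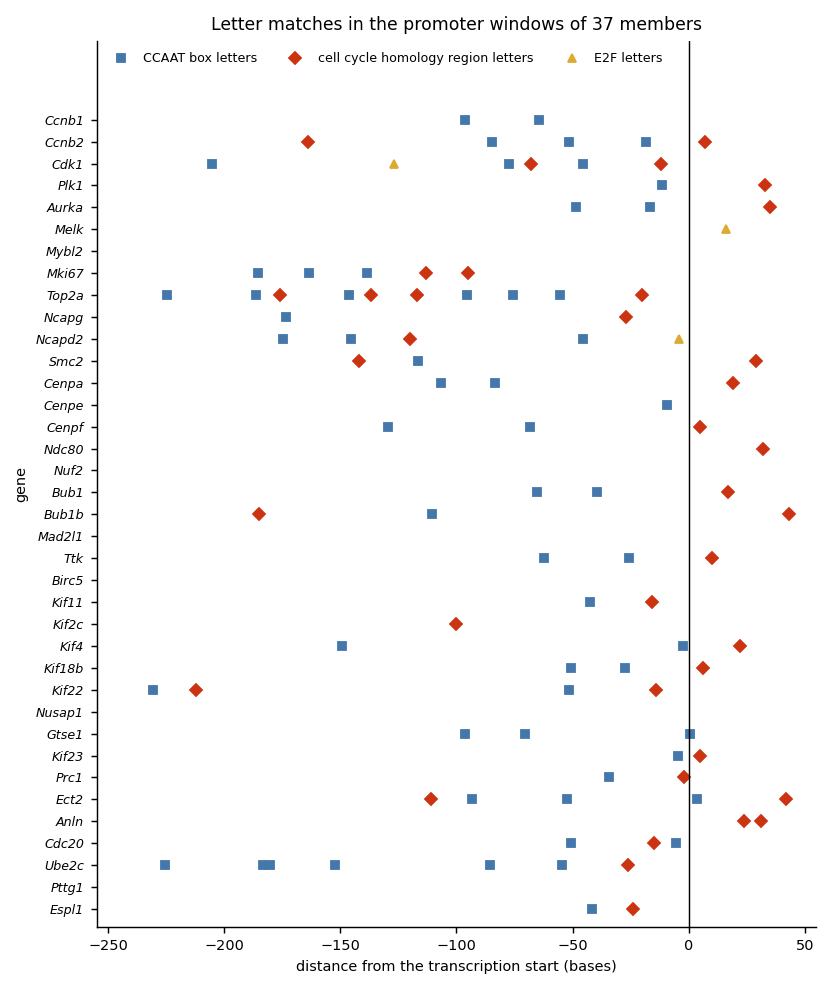
Letter matches in the RefSeq promoter windows of 37 members, 1 row per gene, with the centre of each match as the distance from the transcription start in bases (vertical line at 0). Squares are CCAAT, diamonds are CHR letters and triangles are E2F letters; most diamonds lie close to the start, with squares to their left, and 6 rows are empty.

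With thioacetamide, 45 of the 46 members were called higher than in the control group, where 17.0% of all tested genes were called higher, and none was called lower. The exception was Pttg1. The median log2 fold change over the 46 was 3.32 (quartiles 2.89 and 3.87, range -0.90 to 5.46), and it was 0.02 over all tested genes. In 45 members every TAA mouse lay above every control mouse, against 32.6% of the tested genes. The scaled FPKM of the 46 added up to 24.5 to 25.6 in the control mice, 137 to 182 in the TAA mice and 31.0 to 44.2 in the recovery mice. Without Pttg1 these sums were 14.3 to 15.2, 131 to 177 and 19.9 to 32.7. Levels were low: a mean of at least 1 scaled FPKM was reached by 5 members in control mice, 42 with thioacetamide and 6 after recovery, and 39 members were below 0.5 in the control group.

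After 8 weeks without injections 44 members were called lower than in the TAA group, where 14.3% of all tested genes were called lower, and none was called higher. The median log2 fold change was -2.64 (quartiles -3.02 and -2.19, range -3.60 to 0.99), against -0.01 over all tested genes. The 2 members not called were Aurka, which missed the fold change, and Pttg1. Every TAA mouse lay above every recovery mouse in 45 members, against 31.0% of the tested genes. This comparison and the first share their TAA libraries.

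**Figure D2:**
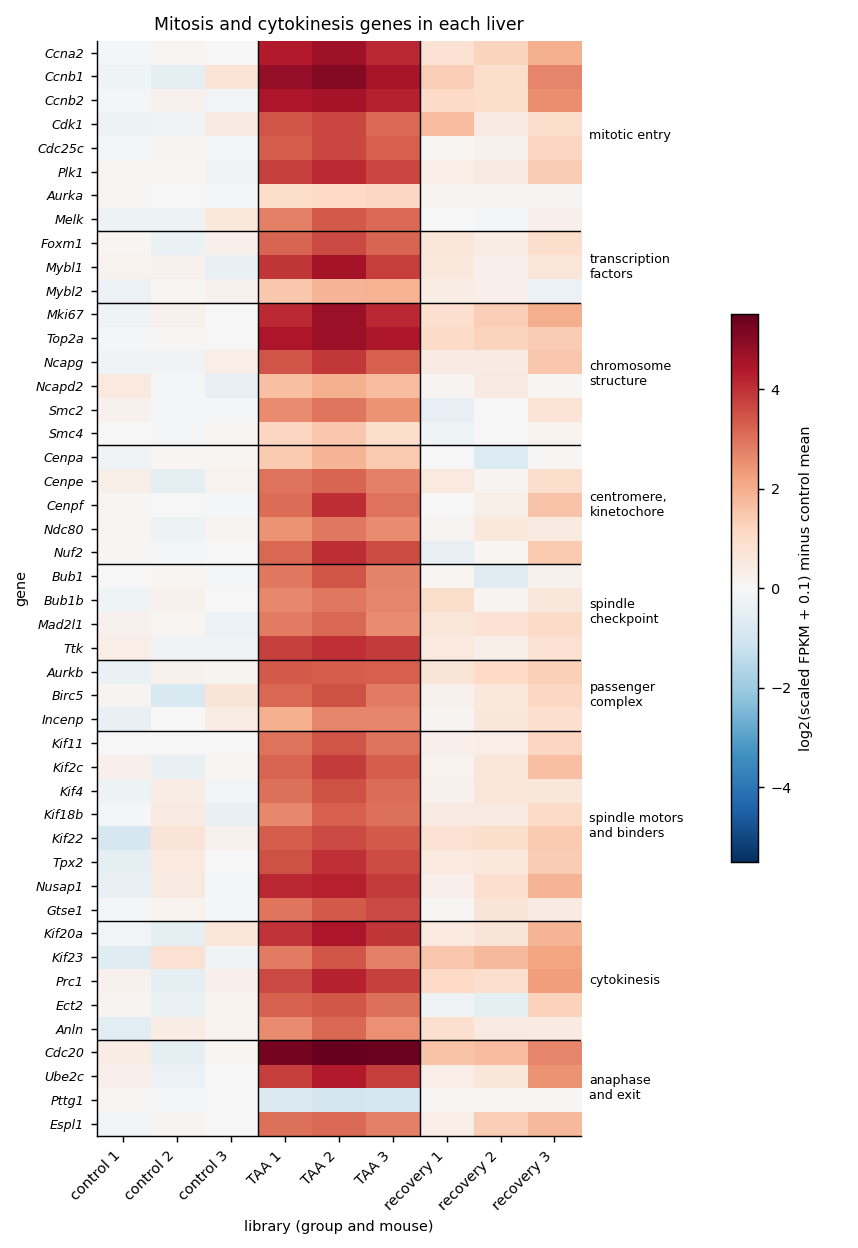
Heat map of log2(scaled FPKM + 0.1) minus the control mean for the 46 members (rows, by role) in the 9 livers (columns). The TAA columns are red in every row except that of Pttg1, with the deepest red in Cdc20, Ccnb1 and Top2a, and recovery 3 is redder than recovery 1 and 2 in most rows.

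The 8 members that act at mitotic entry are cyclins A2 and B1 and B2, the kinase Cdk1 that they activate, the phosphatase Cdc25c that removes its inhibitory phosphates, and the kinases Plk1, Aurka and Melk. All 8 were called higher with thioacetamide, at a median of 3.65 on the log2 scale, and 7 were called lower in recovery than in TAA, at a median of -2.97. Ccnb1 (ENSMUSG00000041431, chromosome 13, 100778650 to 100786570), the cyclin that gives Cdk1 its mitotic activity, had scaled FPKM of 0.0364, 0.0133 and 0.172 in control mice 1 to 3, 4.47, 5.21 and 3.63 in TAA mice and 0.314, 0.220 and 0.927 in recovery mice. The TAA mice stood far above both other groups, and the recovery mice lay above the control mice without overlap. Its log2 fold change was 4.80 with thioacetamide (SE 0.34, adjusted p = 3.20e-05, limma) and -3.13 from TAA to recovery (SE 0.40, adjusted p = 0.000508), and 1.67 between recovery and control (SE 0.52, adjusted p = 0.133). Its control values rest on an estimated 1.7 to 20.8 fragments.

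Cdk1 (ENSMUSG00000019942, chromosome 10, 69335146 to 69352938), the kinase at the centre of mitotic entry, had 0.195, 0.214 and 0.401 scaled FPKM in the control mice, 3.85, 4.44 and 3.05 in the TAA mice and 1.06, 0.392 and 0.611 in the recovery mice. Recovery 1 had the highest value of its group here, and recovery 2 lay below control 3, so these groups overlapped. The log2 fold changes were 3.42 (SE 0.25, adjusted p = 3.82e-05, limma) for TAA against control, -2.37 (SE 0.31, adjusted p = 0.000515) for recovery against TAA and 1.04 (SE 0.37, adjusted p = 0.158) for recovery against control. Plk1 (ENSMUSG00000030867, chromosome 7, 122159439 to 122169873), a kinase needed for spindle assembly and mitotic exit, read 0.118, 0.118 and 0.0792 in the control mice, 2.70, 3.45 and 2.49 in the TAA mice and 0.167, 0.185 and 0.432 in the recovery mice, with no overlap between groups. It changed by 3.85 with thioacetamide (SE 0.20, adjusted p = 9.44e-06) and by -3.11 afterwards (SE 0.29, adjusted p = 0.000106), and differed by 0.75 between recovery and control (adjusted p = 0.199).

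Aurka (ENSMUSG00000027496, chromosome 2, 172345572 to 172370535), the kinase of the spindle poles, was among the few members already above 1 in the control mice, with 1.81, 1.63 and 1.60. Its values were 3.53, 3.66 and 3.76 in the TAA mice and 1.89, 1.88 and 1.89 in the recovery mice, so that no TAA mouse overlapped the other groups. Its log2 fold change of 1.08 (SE 0.12, adjusted p = 0.000237, limma) was the smallest rise of the 45. From TAA to recovery it changed by -0.92 (SE 0.11, adjusted p = 0.000387), past the FDR but short of 2-fold. With 1 added before the log and with quantile normalization its rise also fell short of 2-fold, at 0.80 and 0.86. Ccna2 (0.161, 5.44 and 0.596 scaled FPKM as means of the control, TAA and recovery groups) and Ccnb2 (0.126, 4.77 and 0.642) followed Ccnb1, with log2 fold changes of 4.39 and 4.43 with thioacetamide. Cdc25c was at 0 in 2 of the 3 control mice, at 0.968, 1.25 and 0.922 in the TAA mice and at 0.0145, 0.0251 and 0.137 in the recovery mice. Melk, a kinase found in dividing cells, was likewise at 0 in 2 control mice, and its recovery mean of 0.0285 was near its control mean of 0.0269.

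**Figure D3:**
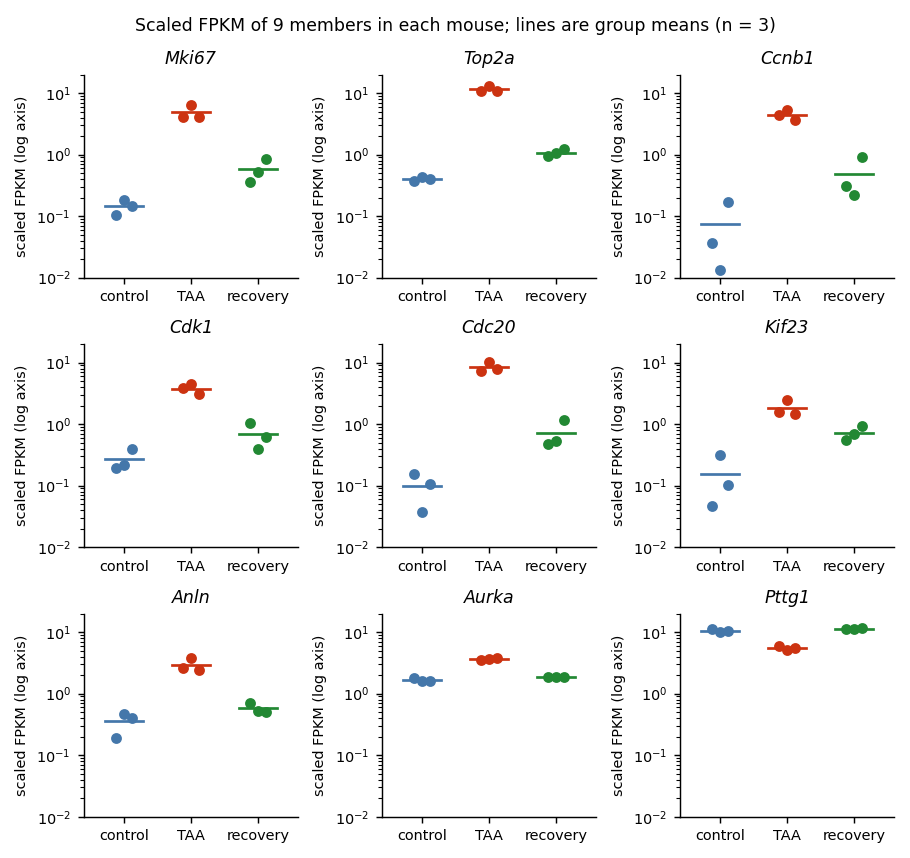
Scaled FPKM (log axis) of 9 members in each mouse, with points for single mice and lines for group means (n = 3). Top2a, Mki67, Ccnb1, Cdk1, Cdc20, Kif23 and Anln are highest in TAA with recovery means above control means, Aurka moves less, and Pttg1 is lowest in TAA.

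The 3 transcription factors of the list turn on late cell cycle genes, and all 3 were called higher with thioacetamide and lower again in recovery. Foxm1 (ENSMUSG00000001517, chromosome 6, 128362967 to 128376146) had 0.0953, 0.0426 and 0.123 scaled FPKM in the control mice, 1.61, 2.17 and 1.58 in the TAA mice and 0.193, 0.147 and 0.258 in the recovery mice. All recovery mice lay above all control mice, though their levels were low. It changed by 3.34 on the log2 scale with thioacetamide (SE 0.24, adjusted p = 3.52e-05, limma), by -2.66 from TAA to recovery (SE 0.22, adjusted p = 6.22e-05) and by 0.69 between recovery and control (SE 0.24, adjusted p = 0.159). Mybl1, which encodes A-Myb, went from a mean of 0.163 to 4.47 and back to 0.269, and its log2 fold change of -3.60 from TAA to recovery was the largest fall of the list. Mybl2, which encodes B-Myb, was much less changed, with means of 0.123, 0.645 and 0.144 and a log2 fold change of 1.75 with thioacetamide.

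The 6 genes of chromosome structure were all called in both comparisons, with median log2 fold changes of 3.11 and -2.67. Mki67 (ENSMUSG00000031004, chromosome 7, 135689784 to 135716361), the gene of the Ki-67 protein that coats mitotic chromosomes and serves as the usual stain for cycling cells, had 0.104, 0.184 and 0.145 scaled FPKM in the control mice, 4.11, 6.33 and 4.14 in the TAA mice and 0.363, 0.525 and 0.863 in the recovery mice. The TAA mean was 33.7 times the control mean, and no group overlapped another. The log2 fold changes were 4.33 (SE 0.23, adjusted p = 1.09e-05, limma) for TAA against control, -2.89 (SE 0.29, adjusted p = 0.000159) for recovery against TAA and 1.43 (SE 0.30, adjusted p = 0.0612) for recovery against control. Top2a (ENSMUSG00000020914, chromosome 11, 98992943 to 99024189), the topoisomerase that untangles sister chromatids, was the most abundant member in the TAA mice, with 10.7, 13.0 and 10.7, against 0.373, 0.427 and 0.400 in the control mice and 0.933, 1.07 and 1.22 in the recovery mice. Its replicates lay close together in each group and the groups did not overlap. It changed by 4.53 with thioacetamide (SE 0.14, adjusted p = 1.65e-06) and by -3.30 from TAA to recovery (SE 0.14, adjusted p = 5.65e-06).

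The other 4 genes of this role encode condensin subunits, which compact mitotic chromosomes. Smc4 (ENSMUSG00000034349, chromosome 3, 69004738 to 69034623), a condensin ATPase subunit, had 3.01, 2.85 and 3.27 in the control mice, 7.02, 8.59 and 5.99 in the TAA mice and 2.59, 2.95 and 3.47 in the recovery mice. The control and recovery mice overlapped, and its log2 fold changes of 1.20 with thioacetamide (SE 0.15, adjusted p = 0.000427, limma) and -1.23 afterwards (SE 0.17, adjusted p = 0.000650) were among the smallest of the list. Smc2, its partner ATPase, rose by 2.67 from a mean of 0.518, Ncapd2 by 1.78 from 1.36 and Ncapg by 3.55 from 0.0590. The 5 members with a control mean of at least 1, Pttg1, Smc4, Aurka, Cenpa and Ncapd2, were 5 of the 6 with the lowest log2 fold changes, the other being Mybl2.

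All 5 centromere and kinetochore genes were called in both comparisons, with medians of 2.99 and -2.44. Cenpa (ENSMUSG00000029177, chromosome 5, 30666777 to 30674830), the histone H3 variant that marks centromeres, had 1.43, 1.78 and 1.77 scaled FPKM in the control mice, 4.70, 6.31 and 4.67 in the TAA mice and 1.64, 0.942 and 1.74 in the recovery mice. Recovery 2 was the lowest of all 9, and control and recovery mice overlapped. Its log2 fold changes were 1.59 (SE 0.16, adjusted p = 0.000177, limma) and -1.82 (SE 0.24, adjusted p = 0.000572), with -0.23 (SE 0.25, adjusted p = 0.630) between recovery and control. The other 4 changed more with thioacetamide. Cenpe, a kinetochore motor, and Cenpf, a large kinetochore protein, rose by 2.99 and 3.37. Ndc80 and Nuf2, which pair in the complex that grips microtubules, rose by 2.66 and 3.60, and in Nuf2 recovery 3 (0.399) stood above recovery 1 (0.0360) and recovery 2 (0.103).

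The 4 genes of the spindle checkpoint, which holds anaphase until every chromosome is attached, were called in both comparisons (medians 2.95 and -2.67). Bub1 (ENSMUSG00000027379, chromosome 2, 127801122 to 127831865), a checkpoint kinase, had 0.0936, 0.115 and 0.0879 in the control mice, 1.39, 2.11 and 1.23 in the TAA mice and 0.115, 0.0239 and 0.132 in the recovery mice. Control and recovery mice overlapped. It rose by 3.04 on the log2 scale (SE 0.24, adjusted p = 4.81e-05, limma), changed by -3.16 from TAA to recovery (SE 0.31, adjusted p = 0.000143) and differed by -0.11 between recovery and control (SE 0.27, adjusted p = 0.841). Bub1b, which encodes the checkpoint protein BubR1, and Mad2l1, which encodes Mad2, had TAA means of 2.19 and 3.53 against control means of 0.241 and 0.401. Ttk, the kinase Mps1 that starts checkpoint signalling, was at 0 in 2 control mice and at 1.44, 1.74 and 1.53 in the TAA mice.

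The 3 members of the chromosomal passenger complex, which corrects faulty attachments and later acts at the midbody, were called in both comparisons (medians 3.16 and -2.30). Aurkb (ENSMUSG00000020897, chromosome 11, 69045647 to 69051664), its kinase, had 0.0695, 0.155 and 0.143 scaled FPKM in the control mice, 2.2, 2.10 and 2.03 in the TAA mice and 0.253, 0.373 and 0.437 in the recovery mice, with no overlap between any of the groups. The log2 fold changes were 3.34 (SE 0.21, adjusted p = 2.05e-05, limma), -2.30 (SE 0.20, adjusted p = 7.26e-05) and 1.03 (SE 0.25, adjusted p = 0.0809) for TAA against control, recovery against TAA and recovery against control. Birc5 (ENSMUSG00000017716, chromosome 11, 117849251 to 117855743), which encodes survivin, the subunit that targets the complex to centromeres, had 0.389, 0.150 and 0.616 in the control mice, 3.86, 4.86 and 3.09 in the TAA mice and 0.423, 0.559 and 0.869 in the recovery mice. Its control mice were spread widely and reached into the recovery range. It changed by 3.16 (SE 0.38, adjusted p = 0.000344), -2.52 (SE 0.26, adjusted p = 0.000181) and 0.64 (SE 0.43, adjusted p = 0.412) in the same 3 comparisons. Incenp, the scaffold, rose by 2.45 and was lowest in TAA 1.

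Among spindle motors and microtubule binders all 8 members were called in both comparisons (medians 3.37 and -2.66). Kif11 (ENSMUSG00000012443, chromosome 19, 37376403 to 37421859), the motor that pushes spindle poles apart, had 0.247, 0.237 and 0.241 in the control mice, 2.63, 3.66 and 2.61 in the TAA mice and 0.309, 0.341 and 0.681 in the recovery mice. The control mice were almost equal and the lowest recovery mouse lay above them. The log2 fold changes were 3.15 (SE 0.18, adjusted p = 1.50e-05, limma), -2.54 (SE 0.28, adjusted p = 0.000224) and 0.61 (SE 0.27, adjusted p = 0.241) in the order used above. Kif4 and Kif22, motors that bind chromosome arms, rose by 3.21 and 3.44, and Kif18b and Kif2c, which shorten microtubules, by 2.99 and 3.46. Tpx2, which activates Aurora A on the spindle, rose by 3.70, Gtse1, a microtubule-binding protein of G2 and mitosis, by 3.30, and Nusap1, a microtubule bundler, by 4.09.

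The 5 cytokinesis genes were also called in both comparisons (medians 3.22 and -2.44), and their median difference between recovery and control was 1.05. Prc1 (ENSMUSG00000038943, chromosome 7, 80294450 to 80316259), which bundles the microtubules of the central spindle, had 0.196, 0.0780 and 0.201 scaled FPKM in the control mice, 3.0, 4.63 and 3.29 in the TAA mice and 0.433, 0.372 and 1.13 in the recovery mice. Its recovery mice lay above its control mice, with recovery 3 highest. It changed by 3.87 (SE 0.27, adjusted p = 3.17e-05, limma) with thioacetamide, -2.44 (SE 0.36, adjusted p = 0.000987) from TAA to recovery and 1.43 (SE 0.42, adjusted p = 0.116) between recovery and control. Ect2 (ENSMUSG00000027699, chromosome 3, 27097222 to 27153878), the exchange factor that switches on RhoA for the contractile ring, had 0.596, 0.391 and 0.625 in the control mice, 5.81, 6.56 and 5.0 in the TAA mice and 0.445, 0.352 and 1.43 in the recovery mice. Recovery 1 and 2 were within or below the control range and recovery 3 was above it. Its log2 fold changes were 3.22 (SE 0.20, adjusted p = 1.83e-05), -3.02 (SE 0.42, adjusted p = 0.000719) and 0.20 (SE 0.47, adjusted p = 0.837).

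Anln (ENSMUSG00000036777, chromosome 9, 22332012 to 22389188), which encodes the ring scaffold anillin, had 0.190, 0.474 and 0.403 in the control mice, 2.58, 3.79 and 2.41 in the TAA mice and 0.716, 0.523 and 0.495 in the recovery mice, and here recovery 1 rather than recovery 3 was highest of its group. It changed by 2.76 (SE 0.30, adjusted p = 0.000215, limma), -2.15 (SE 0.22, adjusted p = 0.000166) and 0.62 (SE 0.30, adjusted p = 0.271) in the same order. Kif23, the motor of the centralspindlin complex, had 0.0467, 0.313 and 0.103 in the control mice, 1.57, 2.43 and 1.49 in the TAA mice and 0.549, 0.688 and 0.936 in the recovery mice, with no overlap. Its change of -1.22 on the log2 scale (adjusted p = 0.00468) from TAA to recovery was the smallest among the 44 that were called, and it kept the highest share of its TAA change, 59.7%. Kif20a, a motor that brings the passenger complex to the midzone, rose by 4.11, but 29.3% of its exon bases are shared with Cdc23 on the other strand, whose scaled FPKM was 3.10, 4.84 and 2.94 in control, TAA and recovery mice on average.

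Of the 4 members that act at anaphase and mitotic exit, 3 were called in both comparisons. Cdc20 (ENSMUSG00000006398, chromosome 4, 118432901 to 118437352), the activator of the anaphase-promoting complex, had 0.157, 0.0369 and 0.107 scaled FPKM in the control mice, 7.44, 10.3 and 7.93 in the TAA mice and 0.468, 0.532 and 1.16 in the recovery mice, so all groups stood apart. The TAA mean was 85.2 times the control mean, and the log2 fold change of 5.46 (SE 0.26, adjusted p = 7.31e-06, limma) was the largest of the list. It changed by -3.48 from TAA to recovery (SE 0.30, adjusted p = 7.72e-05) and differed by 1.99 between recovery and control (SE 0.38, adjusted p = 0.0511). The control values rest on an estimated 2.1 to 6.5 fragments, and the first fold change moved between 3.11 and 6.45 with 1 or 0.01 added before the log. Ube2c, the ubiquitin-conjugating enzyme of that complex, rose by 3.98, with recovery 3 at 1.42 and the other recovery mice at 0.251 and 0.315. Espl1, the separase that cuts cohesin, rose by 2.96 from near 0 in the control mice.

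Pttg1 (ENSMUSG00000020415, chromosome 11, 43420250 to 43426251), which encodes securin, the inhibitor of separase, went the other way from the rest. Its scaled FPKM was 11.2, 10.2 and 10.4 in the control mice, 6.03, 5.22 and 5.58 in the TAA mice and 11.1, 11.2 and 11.5 in the recovery mice. Every TAA mouse lay below every control and recovery mouse, and in the control and recovery groups it was the most abundant of the 46. Its log2 fold change of -0.90 with thioacetamide (SE 0.10, adjusted p = 0.000235, limma) passed the FDR and not the 2-fold limit, as did the change of 0.99 from TAA to recovery (SE 0.10, adjusted p = 0.000130). Recovery and control differed by 0.09 (SE 0.07, adjusted p = 0.486). The scaling between libraries bore on these sizes, which were -0.27 and 0.44 with FPKM left as deposited.

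In recovery against control 1 member, Top2a, was called higher and none lower, where 0.582% of all tested genes were called higher. Top2a had a log2 fold change of 1.22 (SE 0.16, adjusted p = 0.0216, limma), and its recovery mean was 2.68 times its control mean. This call was lost with 1 added before the log, where its log2 fold change of 0.56 fell short of 2-fold, with limma's treat test against a 2-fold change (adjusted p = 1), and without any of control 1, control 2, control 3, recovery 2 or recovery 3 (log2 fold changes 1.14 to 1.26, adjusted p 0.0546 to 0.10). At an unadjusted p below 0.05, 15 members were higher and none was lower, against 11.3% and 11.7% of all tested genes. The fold changes of 43 members were above 0 and those of Cenpa, Bub1 and Smc4 below it. The median was 0.64 (quartiles 0.41 and 1.05, range -0.23 to 1.99), against 0.01 over all tested genes.

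In 21 of the 46 members all 3 recovery mice lay above all 3 control mice, against 14.6% of the tested genes. These were Ccna2, Ccnb1, Ccnb2, Plk1, Aurka, Foxm1, Mybl1, Mki67, Top2a, Ncapg, Ndc80, Mad2l1, Aurkb, Kif11, Kif22, Kif23, Prc1, Anln, Cdc20, Ube2c and Espl1. They include members of each role. When all 9 libraries shared 1 estimate of the spread, 7 members were called higher than in control: Top2a, Cdc20, Kif23, Ccnb2, Mki67, Ccna2 and Aurkb, with log2 fold changes of 1.03 to 1.99 and adjusted p of 0.00258 to 0.0437 (limma). In that fit 151 of all tested genes were called higher, against 82 in the fit of the 6 libraries. Age differs between these groups as well as the earlier treatment, and the effects of age and treatment cannot be told apart.

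**Figure D4:**
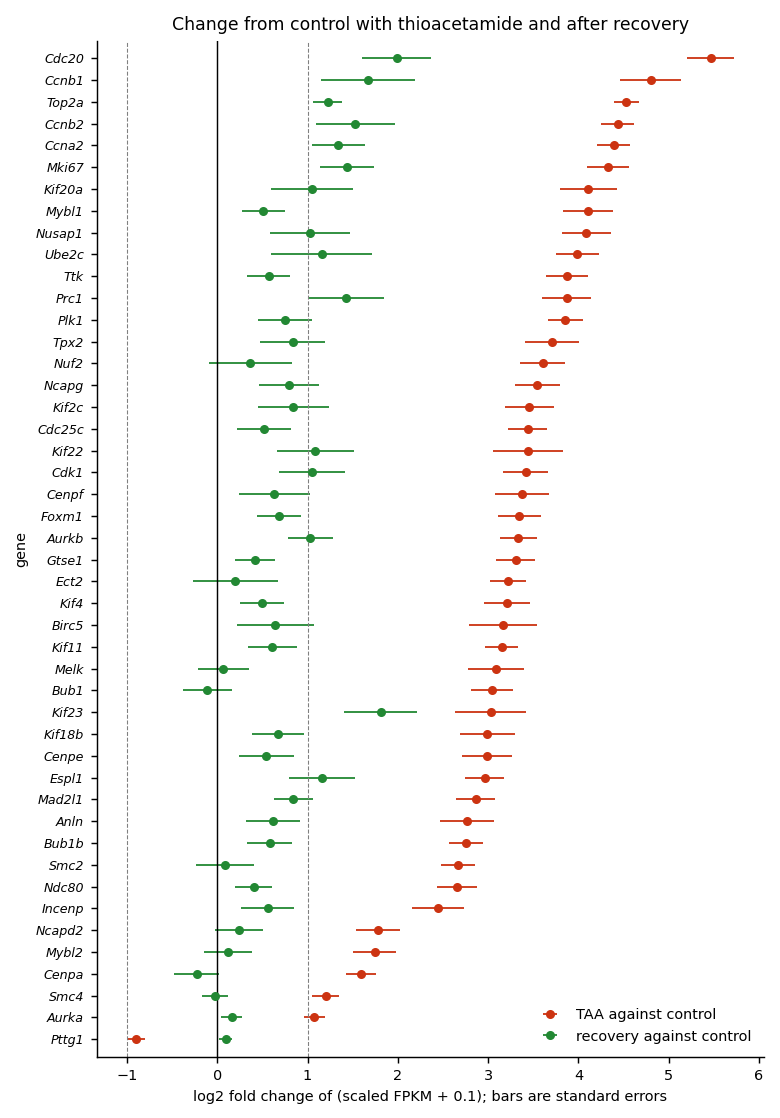
Log2 fold change of (scaled FPKM + 0.1) against control for the 46 members, in TAA (red) and in recovery (green), with bars for standard errors (3 mice a group) and dashed lines at 2-fold. The red points of 45 members lie right of the 2-fold line, from 1.08 in Aurka to 5.46 in Cdc20, and all green points lie between -0.23 and 1.99.

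The share of the thioacetamide change that was left in recovery, as the recovery minus control difference over the TAA minus control difference on the log2 scale, had a median of 21.0% over the 45 called members (quartiles 14.7% and 29.5%). It ranged from -14.2% in Cenpa to 59.7% in Kif23. Over all genes called higher with thioacetamide the median was 17.2%. By role it was highest in the anaphase and exit genes (32.7%, with Pttg1 among them) and lowest in the transcription factors (12.4%). For each recovery mouse alone the median of the 45 was 13.2%, 16.9% and 35.8% (SD 12.1, n = 3), highest in recovery 3.

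Within the TAA group and within the recovery group, the same mouse was highest in most members. Control 1, 2 and 3 were highest of their group in 13, 20 and 13 members. TAA 2 had the highest value of its group in 40 of the 46 members, while 32.0% of all tested genes and 28.3% of the 2389 genes called higher with thioacetamide were highest there. The median of the members relative to the control mean was 3.17, 3.49 and 3.12 on the log2 scale in TAA 1 to 3. Recovery 3 was the highest recovery mouse in 38 members, while 32.9% of all tested genes and 48.6% of the genes called higher were highest in it. Its median was 1.15, against 0.40 and 0.51 in recovery 1 and 2, and -0.07 to 0.01 in the control mice. Without recovery 3 the median share left was 14.7% and the median log2 difference from control 0.44, and the counts of 45 and 44 called members did not change when any mouse was left out of its comparison.

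Genes that work beside the members were taken as lists by symbol. All genes of these lists passed the filter on low values, some of them only because of their TAA libraries. Ska1, for example, had means of 0, 0.293 and 0.00886 scaled FPKM in the control, TAA and recovery groups. Of all tested genes, 17.0% were called higher with thioacetamide and 14.3% lower from TAA to recovery. Of 33 other spindle and cytokinesis genes, 30 were called higher with thioacetamide and 30 lower in recovery than in TAA (medians 2.83 and -2.34). Their extremes were Pbk (4.90), a mitotic kinase, and Kif5b (0.38), a transport kinesin that all cells use. Of 36 other kinetochore and centromere genes, 26 were called higher and 25 lower (medians 1.83 and -1.71), from Cdca8 (3.80), the borealin subunit of the passenger complex, to Mis12 (-0.78, adjusted p = 0.378, limma). In Mis12 the TAA mice read 5.18, 0.599 and 4.52, so its negative value came from TAA 2. Zwint (-0.74, adjusted p = 0.00178) and Hjurp (-0.53, adjusted p = 0.00393, limma) were lower with thioacetamide, past the FDR but short of 2-fold. Their control means were 43.9 and 34.5 scaled FPKM, and their TAA means 26.3 and 23.8. Both genes were named because of their values. Of 12 other regulators of G2 and mitosis 8 were called higher and 9 lower (medians 1.45 and -1.55), from Cdkn3 (4.38) to Ppp2r2d (-0.70). Wee1, the kinase that holds Cdk1 inactive, was the 1 gene of this list called lower in recovery than in control, with 7.51, 5.44 and 5.5 in the control mice and 1.52, 1.82 and 1.16 in the recovery mice (log2 fold change -1.97, adjusted p = 0.0138). In that comparison 58 of the 14094 tested genes were called lower. Wee1 was named because of its values.

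Medians with thioacetamide were -0.24 to 0.20 in the next lists, against 0.02 over all tested genes. These lists hold genes of the anaphase-promoting complex, of condensin and cohesin, and of the DREAM and MuvB complexes. Of 17 subunits and regulators of the anaphase-promoting complex 1 was called higher and the same number lower afterwards (5.88% of the list, where 17.0% and 14.3% of all tested genes were called), and the median log2 fold changes were 0.20 and -0.18. Its ends were Fbxo5 (1.48), an inhibitor of the complex, and Cdc26 (-0.91, adjusted p = 0.203, limma). Of 16 other condensin and cohesin genes 4 were called higher and 4 lower (25% of the list each, medians 0.16 and -0.18), from Esco2 (3.96), which acetylates cohesin in S phase, to Stag2 (-0.29). The 11 genes of the DREAM and MuvB complexes, which repress late cell cycle promoters in resting cells and help to activate them in dividing ones, had a median of -0.24, with Rbl1 (2.46) called higher and Lin52 (-1.09) lower, and 2 called lower from TAA to recovery (median 0.10).

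Lists of genes that act earlier in the cycle or hold it back had medians of 0.82 to 1.51 with thioacetamide. Of 34 DNA replication genes, 20 were called higher and 1 lower with thioacetamide (median 1.44), and 23 lower and 1 higher in recovery against TAA (median -1.53), from Uhrf1 (4.62) to Mcm10 (-2.54), which was called in both directions. Recovery differed from control by a median of -0.17 in the replication genes and 0.64 in the members. The same median was 0.68 in the other spindle and cytokinesis genes and 0.10 in the other kinetochore and centromere genes. It was 0.04 in the other regulators of G2 and mitosis. Of 8 G1 cyclins and their kinases 4 were called higher and 4 lower (medians 0.82 and -0.83), from Ccnd1 (3.88, cyclin D1) to Ccnd3 (-1.07, adjusted p = 0.0648, limma), and of 5 E2F genes 3 were called higher and 4 lower (medians 1.51 and -1.64), from E2f7 (2.81) to E2f3 (-0.06). Of 7 CDK inhibitors 4 were called higher and 3 lower (medians 1.03 and -0.58), from Cdkn1a (4.96), which encodes p21 and stops the cycle, to Cdkn2d (0.20). Cdkn1a read 0.870, 1.04 and 0.969 in the control mice, 27.2, 34.4 and 37.8 in the TAA mice and 9.47, 16.8 and 20.3 in the recovery mice, and it was called higher in recovery than in control (log2 fold change 3.81, adjusted p = 0.00776), as was Cdkn2c (1.27, adjusted p = 0.0208). Of all tested genes, 17.0% were called higher with thioacetamide, 14.3% lower from TAA to recovery and 0.582% higher in recovery than in control. Shares called lower with thioacetamide or higher from TAA to recovery were not computed. These lists were not tested against the members.

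**Figure D5:**
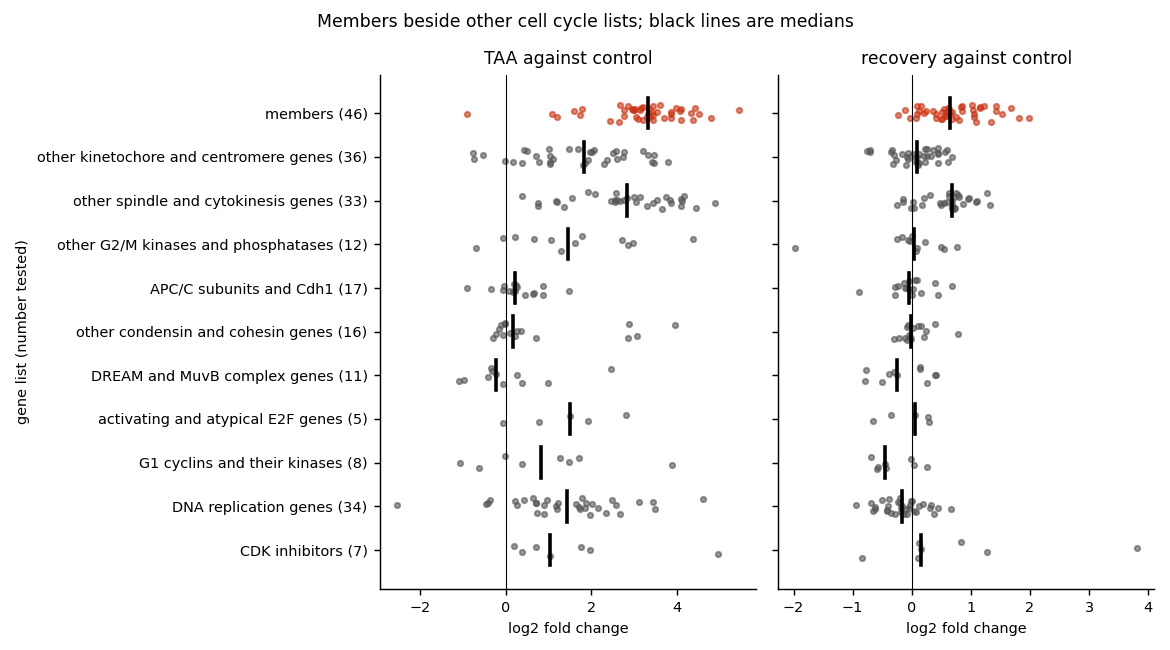
Log2 fold changes of the 46 members (red) and of 10 other cell cycle lists (grey), TAA against control at left and recovery against control at right, with each point a gene and each black line a list's median. The members have the highest median at left (3.32), the subunits of the anaphase-promoting complex and the DREAM genes lie near 0, and at right the members (0.64) and the other spindle genes (0.68) lie above 0.

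All 10 hepatocyte markers were above 0 in every group, and the sums of some other marker lists moved with the groups. The summed scaled FPKM of 6 cholangiocyte markers was 15.8 to 21.4 in the control mice, 299 to 448 in the TAA mice and 28.9 to 39.3 in the recovery mice, and all 6 were called higher with thioacetamide. The sum of 10 stellate cell and myofibroblast markers was 62.9 to 108, 312 to 444 and 96.2 to 136, with 9 of 10 called. For 10 macrophage markers it was 95.1 to 127, 183 to 244 and 133 to 192, with 4 of 10 called. For 9 neutrophil markers it was 0.892 to 4.30, 15.3 to 21.8 and 3.21 to 5.18. Only 6 of these 9 passed the filter on low values, and all 6 were called. That filter averages all 9 libraries, so a marker that is high only with thioacetamide can pass because of its TAA libraries. Ly6g was at 0 in the control mice, and Ly6g and Mpo were at 0 in the recovery mice. Of 10 hepatocyte markers, 6 were called lower with thioacetamide, and their sum was 43807 to 48357, 23261 to 30568 and 51878 to 54699. TAA 2, the mouse with the highest members, had the lowest sum of its group in 6 of the 10 marker lists, among them the stellate, macrophage, neutrophil, endothelial and erythroid lists. Recovery 3 had the highest sum of its group in 8 of the 10, all but the neutrophil and the B and plasma cell lists. Endothelial sums were 55.5 to 101, 60.9 to 80.7 and 93.5 to 106, T and NK cell sums 1.75 to 3.02, 3.35 to 4.22 and 1.57 to 4.11, B and plasma cell sums 66.4 to 73.3, 60.7 to 65.7 and 56.7 to 65.4, and erythroid sums 505 to 789, 286 to 662 and 414 to 786. Of these lists, 0 of 8 endothelial, 1 of 9 T and NK cell and 1 of 8 B and plasma cell markers were called higher with thioacetamide. Of 7 erythroid markers tested, 0 were called higher and 2 lower. Over all tested genes 17.0% were called higher. The share called lower was not computed, so the counts called lower have no measure beside them. Which cells carried the members' RNA was not tested.

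The libraries differed in ways that bear on these values. An estimated 26.9 to 35.5 M fragments lay behind the control libraries, 38.7 to 40.5 M behind the TAA libraries and 34.7 to 40.6 M behind the recovery libraries (control 2 above recovery 1), and 4 members were at 0 in at least 1 control mouse. Scaling factors were 0.827 to 0.878 in the control, 1.29 to 1.38 in the TAA and 0.893 to 0.907 in the recovery libraries, a shift of 0.64 on the log2 scale between TAA and control. TAA 3 alone carried skeletal muscle markers, with a sum of 43.0 against 0.160 to 0.472 in the other libraries. Ube2c shares 22.8% of its exon bases with the muscle gene Tnnc2 on the other strand, which was at 0 in the control and recovery libraries and averaged 0.323 in the TAA libraries. Whether reads were counted by strand was not given in the sources used here, so reads from such shared bases cannot be told apart. Other shares were 15.1% in Kif4 (Pdzd11), 13.4% in Ncapg (Lcorl), 12.7% in Cdc25c (Gm3550), 12.5% in Ccna2 (Exosc9) and 11.1% in Prc1 (Rccd1).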

How the data were processed

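Liver RNA of 9 mice (3 control, 3 TAA, 3 recovery) was read as paired ends on an Illumina NovaSeq by the authors. Per the labels and methods, reads were mapped to mm10 with HISAT2 2.2.1 and counted on genes with featureCounts 1.5.0-p3, and the authors deposited FPKM values, 1 column per mouse. Annotation release and strand setting were not given in the sources used here. Gene coordinates are those of the deposited table (mm10).

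Libraries were put on 1 scale with median-of-ratios factors, taken over the 14005 genes above 0 in every library. Genes averaging at least 0.1 FPKM were tested on log2(scaled FPKM + 0.1) with limma 3.58.1 (R 4.3.3; linear models, with moderation by eBayes and its trend option), using the 6 libraries of each comparison and Benjamini-Hochberg adjustment over 14094 genes. Calls needed an FDR below 0.05 and a fold change of at least 2. Fragment numbers were estimated from steps between low FPKM values. Between 52.6% and 61.2% of low values came out whole within 0.08 (16% by chance), so no count test was run and intervals from counting were not computed.

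The members and lists were chosen with earlier results of these data known. Of the 46 members, 15 chosen by symbol, the 3 with the largest and the 3 with the smallest change with thioacetamide, any called in recovery against control and any not called in the other comparisons were described in full, the rest by role. A marker of 1 list is not reported here. The limma fit of TAA against control was tested on simulated data. Changes were placed only in genes above the control level of most members, so calls at the members' level were not tested. Other steps used Python 3.11.15 (pandas 2.3.3, numpy 2.4.6).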

Additional observations from a re-analysis of the deposited data

How the results depend on the processing

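The fold changes of low genes depend on the value added before the log and on the scaling. For TAA against control the members' median log2 fold change of 3.32 became 4.37 with 0.01 added, 1.5 with 1 added, 3.83 with FPKM as deposited and 2.66 with quantile normalization. For recovery against TAA the median of -2.64 became -1.32 with 1 added and -3.13 with FPKM as deposited. For recovery against control the median of 0.64 became 1.15 with 0.01 added and 0.18 with 1 added.

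The count called higher with thioacetamide (45) was 38 with 1 added, 41 when treat (limma) tested the change against 2-fold, 43 with quantile normalization and 31 of the 32 members with a mean FPKM of at least 1, and 45 under the other alternatives and without any single mouse. The count called lower from TAA to recovery (44) was 36 with 1 added and with treat, 42 with quantile normalization, 30 with a mean FPKM of at least 1, 45 with FPKM as deposited, and 44 without any single mouse. Pttg1 became the 1 member called higher in that comparison with 0.01 added, and leaving out single mice gave 0 to 1. Its change sits at the 2-fold limit (0.94 to 1.05 without single mice).

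The weakest count was that of recovery against control. It was 1 (Top2a), and it became 0 with 1 added and with treat, 2 with FPKM as deposited, with a mean FPKM of at least 1 and with quantile normalization, 7 with all 9 libraries in 1 fit, and 0 to 2 without single mice. The adjusted p of Top2a ranged from 0.00258 to 1 over all alternatives (limma). In the fit with the replicate block this count was 0 (Top2a, adjusted p = 0.0669), and the block changed no other count of members. Mouse numbers are not said to mark litters or batches, deviations of same-numbered mice from their group means had r of -0.07 to 0.12, and not every mouse correlated best with its own number. No member reversed its direction under any alternative, among those called in each comparison.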
